A study of Mus musculus with 60 samples.

Results

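The genes described here are 10 activity-dependent immediate early genes, which cells switch on within minutes of a stimulus without first making new protein: Egr1, Egr3, Egr4, Arc, Nr4a1, Nr4a2, Nr4a3, Npas4, Ier2 and Dusp1. They were taken as a named list, and all 10 were found among the 21887 protein-coding genes of the RefSeq table for GRCm38.p6. For each gene, peaks were collected within the gene body and 10 kb on either side. Egr1, Egr3 and Egr4 encode zinc finger transcription factors, Nr4a1, Nr4a2 and Nr4a3 encode orphan nuclear receptors, and Npas4 encodes a transcription factor known for its dependence on calcium entry in neurons. Arc is a synaptic effector protein, Ier2 a small nuclear protein, and Dusp1 a phosphatase that switches off MAP kinases. In neurons, calcium and growth factor signals reach such genes through kinases that act on factors already bound near their starts, among them CREB at cyclic AMP response elements (CRE) and SRF at serum response elements. Their starts are therefore often accessible, and carry some acetylated histone, before a stimulus arrives. H3K9ac and H3K27ac, acetylated forms of histone H3, are found at active starts and enhancers, H3K27me3 is found in silenced chromatin, and ATAC-seq records DNA that a transposase can reach.

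The tissue was whole dorsal root ganglia of lumbar levels L4 to L6, which hold the cell bodies of sensory neurons together with glia and other cells, taken 24 hours after surgery from C57BL/6 mice aged 6 to 8 weeks. SNA cut the axons of the sciatic nerve and Sham was its control operation. DCA cut the axons in the dorsal columns of the spinal cord, and Lam, a laminectomy, was the control for it. No other agent or allele is named in the labels, and all 4 groups had undergone an operation. Each ChIP sample was a pool of ganglia from 10 mice, with 2 samples for each mark and surgery, and each ATAC sample came from 1 mouse, with 3 samples for each surgery. The 16 deposited lists, 1 for each of 4 assays and 4 surgeries, were each made from all replicates pooled. A list has no replicate error, so no difference between surgeries below was tested, and Lam beside Sham serves as the difference between control operations. Read depth is unknown from peak lists, and in whole ganglia a weaker signal in every cell and fewer cells carrying it cannot be told apart.

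The lists differed in size, which touches every count below. H3K9ac lists held from 50332 peaks in Sham to 89647 in DCA, H3K27ac lists from 43803 in Sham to 75824 in SNA, H3K27me3 lists from 90011 in DCA to 154055 in Lam, and ATAC lists from 153556 in Sham to 174605 in SNA. One list stood apart in where its peaks lay: of the 5000 Sham H3K27ac peaks with the highest −log10 p, 90.5% were overlapped by a Lam peak and 91.5% by a DCA peak, but 18.2% by an SNA peak. Of these 5000 peaks, 22.1% overlapped an ATAC peak of Sham. In the H3K9ac lists the start carried a peak for 6 of 7 glial marker genes with every surgery, for 1 or 2 of 8 sensory neuron marker genes, for 0 or 1 of 7 macrophage marker genes, for 2 or 3 of 4 endothelial and for 1 to 3 of 4 fibroblast marker genes. Over all genes the H3K9ac shares were 50.1% to 59.9%. For H3K27ac the counts were 4 to 7 of 7 glial, 2 or 3 of 8 neuron and 0 of 7 macrophage markers. They were 0 to 2 of 4 endothelial and 1 to 3 of 4 fibroblast markers, beside 40.4% to 51.6% of all genes. Accessible starts were found for 7 or 8 of the 8 neuron markers, beside 68.8% to 70.7% of all genes. Acetylation at the neuron marker starts was thus rarely detected in whole ganglia. The part of each cell type in the values below was not tested.

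Upstream sequences of 5 genes are shown because accessibility and acetylation parted company at these starts: Npas4 and Egr4 were accessible without acetylation, Nr4a3 had acetylation in some lists, and Nr4a1 and Dusp1 had it in all. Each runs 5′ to 3′ in the direction of the gene and ends at the base before the start listed by RefSeq (GRCm38.p6). Capitals mark the CRE core TGACG on either strand, so that CGTCA is the core on the opposite strand. The stretches are chr19:4989972-4990221 (minus strand) for Npas4, chr6:85513590-85513839 (minus) for Egr4, chr4:48045055-48045304 (plus) for Nr4a3, chr15:101266596-101266845 (plus) for Nr4a1 and chr17:26508473-26508722 (minus) for Dusp1.
Npas4: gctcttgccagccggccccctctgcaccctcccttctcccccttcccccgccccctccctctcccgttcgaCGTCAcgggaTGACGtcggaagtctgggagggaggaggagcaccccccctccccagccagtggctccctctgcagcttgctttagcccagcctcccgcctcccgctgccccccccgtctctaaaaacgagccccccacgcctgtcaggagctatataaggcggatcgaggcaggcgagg
Egr4: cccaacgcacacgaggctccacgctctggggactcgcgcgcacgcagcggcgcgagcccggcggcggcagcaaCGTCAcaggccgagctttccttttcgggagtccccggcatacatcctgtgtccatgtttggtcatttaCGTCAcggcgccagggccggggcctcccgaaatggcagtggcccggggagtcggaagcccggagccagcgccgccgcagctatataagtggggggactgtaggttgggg
Nr4a3: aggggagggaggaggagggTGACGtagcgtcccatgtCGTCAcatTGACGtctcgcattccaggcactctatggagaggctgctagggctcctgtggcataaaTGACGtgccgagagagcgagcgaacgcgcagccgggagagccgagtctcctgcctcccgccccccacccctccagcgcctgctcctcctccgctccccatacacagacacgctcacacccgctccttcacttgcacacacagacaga
Nr4a1: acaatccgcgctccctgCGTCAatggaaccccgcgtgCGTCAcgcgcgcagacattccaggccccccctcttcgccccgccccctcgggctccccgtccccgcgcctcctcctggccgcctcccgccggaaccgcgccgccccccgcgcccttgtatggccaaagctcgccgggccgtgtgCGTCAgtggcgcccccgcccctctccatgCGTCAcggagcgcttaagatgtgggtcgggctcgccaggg
Dusp1: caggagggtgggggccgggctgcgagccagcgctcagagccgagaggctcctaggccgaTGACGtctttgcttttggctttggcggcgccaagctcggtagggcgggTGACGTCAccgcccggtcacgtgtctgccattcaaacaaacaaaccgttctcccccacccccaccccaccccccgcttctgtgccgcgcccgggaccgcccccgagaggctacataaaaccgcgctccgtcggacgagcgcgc

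The CRE core was present in all 6 upstream stretches that the RefSeq table held for these genes (those shown and that of Nr4a2), against 20.2% of the 21263 stretches of 250 bases upstream of protein-coding genes. Nr4a1, Nr4a2 and Nr4a3 had 4 cores each, Dusp1 had 3, and Npas4 and Egr4 had 2 each. The full element TGACGTCA occurred in Dusp1 alone, from −143 to −136 counted from the start, and in 1.92% of all stretches. The letters GCGNGGGCG, which EGR proteins recognise, occurred in Nr4a1 and Nr4a2 and in 6.34% of all stretches. TATAA occurred from −27 to −23 in Egr4, from −26 to −22 in Npas4 and from −163 to −159 in Nr4a2, and in 20.3% of all stretches. The CArG box of SRF (1.39% of all stretches), the AP-1 site TGANTCA (6.13%) and the NR4A element AAAGGTCA (1.2%) were found in none of the 6. All motifs were searched on both strands, a full CRE holds 2 overlapping cores, and a match is a description of letters and not a bound site. Egr1, Egr3, Arc and Ier2 have no entry in the promoter table.

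All 10 starts were accessible with every surgery, and they split by acetylation. A start peak here is the widest peak that reaches within 1 kb of the listed start, or of either gene end for Egr1, Egr3, Arc and Ier2, and it need not be the same interval in every list. In the ATAC lists all 10 genes had a start peak with Sham, SNA, Lam and DCA surgery, against 68.8%, 70.7%, 69.0% and 70.1% of all protein-coding genes, and 62.1% of genes had one in all 4 lists. For H3K9ac the members with a start peak numbered 7 (Sham), 6 (SNA), 7 (Lam) and 8 (DCA), beside 50.1%, 51.4%, 51.1% and 59.9% of all genes. For H3K27ac they numbered 8, 7, 8 and 8 in the same order, beside 40.4%, 51.6%, 51.3% and 43.3%. Egr1, Nr4a1, Nr4a2, Ier2 and Dusp1 had acetylation at the start in all 8 acetylation lists, as did 45.4% of the 13598 genes accessible in all 4 ATAC lists. Egr4 and Npas4 had it in none of the 8, as did 1276 of those genes (9.38%). Egr3 and Arc lacked H3K9ac in 1 list each, and Nr4a3 had H3K9ac in 2 lists and H3K27ac in 3. Many H3K9ac peaks were weak: 14 of the members' 28 start peaks were left when a −log10 q of at least 5 was required.

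**Figure D1:**
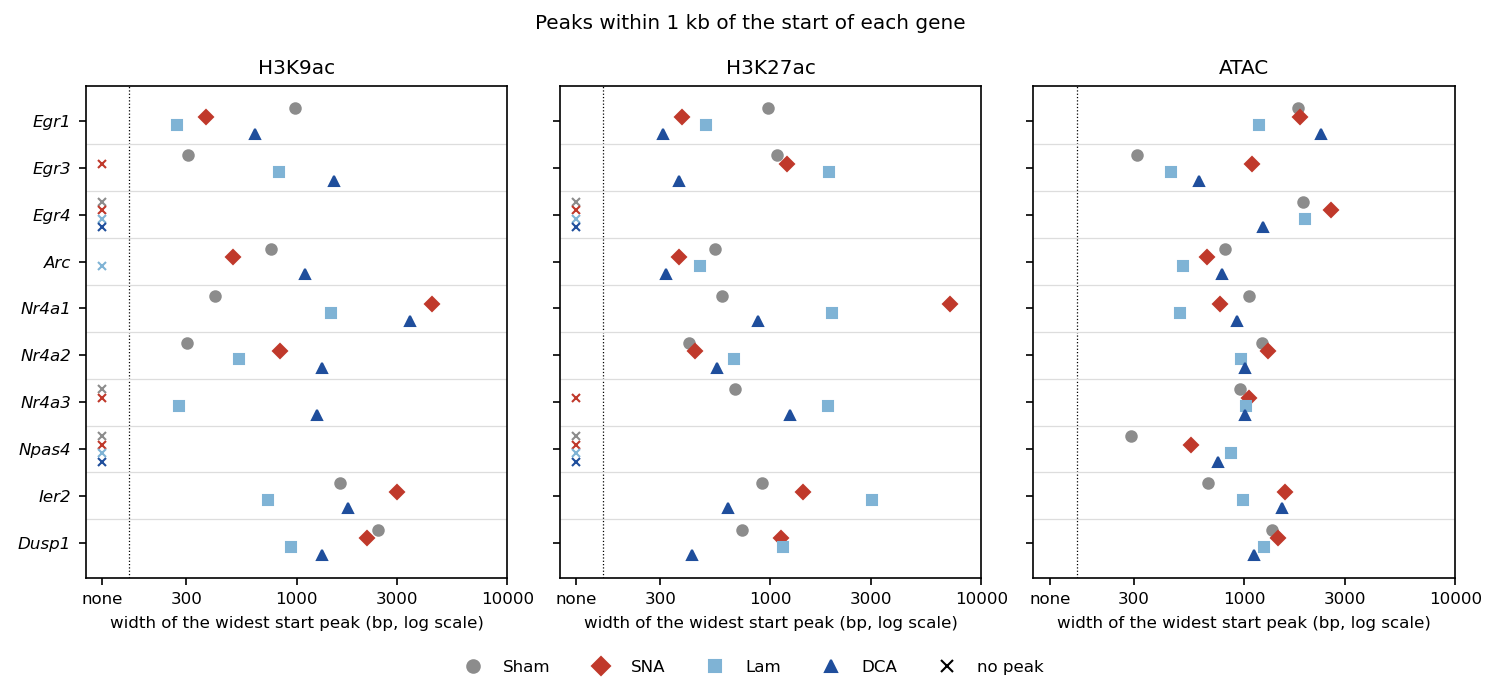
Width of the widest peak within 1 kb of the start for each gene (rows) in the H3K9ac, H3K27ac and ATAC lists, in bp on a log scale, with 1 marker for each surgery and a cross where the list held no such peak. ATAC peaks are present for all 10 genes, Egr4 and Npas4 have no acetylation, and the widest peak is that of Nr4a1 in the SNA H3K27ac list at 7062 bp.

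Egr1, the early growth response gene most used as a marker of recent activity, lies at chr18:34861207-34864956. Its H3K9ac start peaks measured 982 bp in Sham, 371 bp in SNA, 272 bp in Lam and 637 bp in DCA. Its H3K27ac start peaks measured 969, 382, 497 and 309 bp in the same order. Sham had the widest peak for both marks, and the SNA peak was narrower than the Sham peak for both, but so was the Lam peak. These were not the same interval in each list: the Sham H3K9ac peak spanned the lower-coordinate gene end, whereas the SNA and Lam peaks began 815 bp and 773 bp inside the gene from that end. Counted instead as bases covered by H3K9ac within 2.5 kb of a gene end, Egr1 had 1985 (Sham), 371 (SNA), 669 (Lam) and 1881 (DCA). The SNA and Lam lists were thus low and the Sham and DCA lists high, an order that does not follow the injured and control operations. The ATAC start peak was 1794, 1833, 1178 and 2301 bp wide, and from 97.9% to 98.8% of the peaks of each list had a lower −log10 p. A second acetylated stretch lay outside that end, from −5655 to −5230 bp in the Sham H3K9ac list and from −6075 to −5634 bp in the SNA list.

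Egr3, whose product shares the DNA-binding zinc fingers of Egr1, lies at chr14:70077317-70082613. Its H3K9ac start peak was 306 bp in Sham, absent in SNA, 828 bp in Lam and 1498 bp in DCA. The SNA list did hold H3K9ac nearby, and 826 bases were covered within 2.5 kb of a gene end, beside 1392 in Sham, 2478 in Lam and 3941 in DCA. The H3K27ac start peak was 1071, 1196, 1895 and 369 bp in Sham, SNA, Lam and DCA. DCA was thus the highest list for H3K9ac and the lowest for H3K27ac. The widest intervals lay on different sides of the gene end. The DCA H3K9ac peak ran from −2318 to −821 bp and the Lam H3K27ac peak from −2745 to −851 bp, whereas the Sham start peaks lay inside the gene. Sham also had peaks outside that end, beyond the 1 kb limit for a start peak. Among them were H3K27ac from −2073 to −1011 bp and H3K9ac from −2274 to −1893 bp and from −1745 to −1265 bp. The ATAC start peak was 310 bp in Sham, 1084 bp in SNA, 448 bp in Lam and 612 bp in DCA, widest in SNA. The accessible region found in all 4 ATAC lists lay 1.4 kb from the lower-coordinate gene end, at chr14:70074419-70075917, and overlapped peaks of all 8 acetylation lists. Inside the gene, from 2624 to 3385 bp from that end, the Sham H3K27ac list held a peak of fold enrichment 18.3. Peaks of the Lam and DCA lists overlapped it, and the SNA list held none there. It is 1 of 5 peaks in these genes' windows that belong to the 5000 strongest of the Sham H3K27ac list. The windows hold 45 peaks of that list and the whole list 43803, so the share in the windows is similar to that of the list. Fold enrichment is the authors' own value for a peak over the background in its list.

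Egr4 was accessible but not acetylated at the start. Its gene, at chr6:85511121-85513589, spans 2469 bp, and the ATAC start peak was 1888 bp wide in Sham, 2566 bp in SNA, 1939 bp in Lam and 1229 bp in DCA. ATAC peaks covered 67.9%, 91.5%, 66.6% and 82.5% of the gene in these lists. The whole window held no H3K27ac peak in any list, and 1 H3K9ac peak, in DCA, 10384 to 10979 bp downstream of the start at the neighbouring gene Fbxo41. Broad H3K27me3 intervals covered 18015 bases of the 22469-base window in Sham, 14807 bases in SNA, 16543 in Lam and 824 bases in DCA. The DCA coverage was the low one, and the DCA list was also the smallest H3K27me3 list. The strongest of these intervals had a −log10 q of 0.16, so none would pass a q of 0.05.

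Npas4 was the other gene without acetylation. Its RefSeq span, chr19:4984353-5003439, is longer than the part downstream of the listed start at 4989971. The ATAC start peak measured 291 bp in Sham, 559 bp in SNA, 861 bp in Lam and 748 bp in DCA, narrow in Sham and wider in the other 3 lists. Of the peaks in each list, 86.6%, 57.1%, 70.8% and 80.8% had a lower −log10 p. There was no H3K9ac or H3K27ac peak in the 39087 bases of its window in any of the 8 lists. Further accessible regions shared by all 4 ATAC lists lay 10.7 kb and 22.5 kb upstream of the start, and they too overlapped no acetylation peak. H3K27me3 intervals covered 24053 bases (Sham), 20763 (SNA), 20220 (Lam) and 6697 (DCA), again low in DCA, with a highest −log10 q of 0.15.

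**Figure D2:**
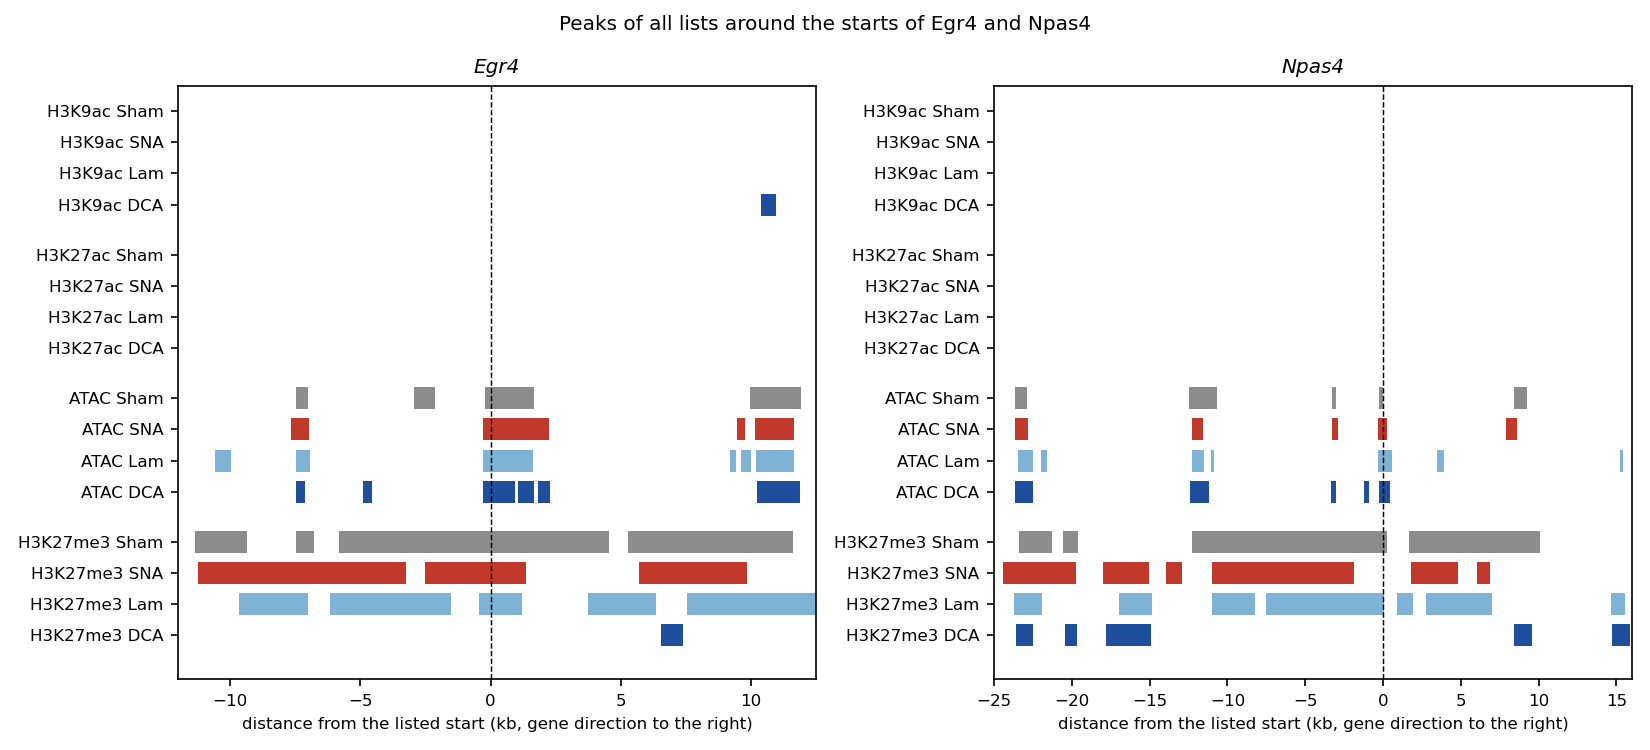
Peaks of all 16 lists around the listed starts of Egr4 and Npas4, with distance from the start in kb on the x axis and 1 row for each list, coloured by surgery. ATAC peaks sit at both starts in all 4 lists, the acetylation rows are empty except for 1 Egr4 peak in DCA, and the broad H3K27me3 intervals are weak.

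H3K27me3 at the other starts was sparse. Members with an H3K27me3 start peak numbered 4 in Sham (Egr3, Egr4, Arc and Npas4), 1 in SNA (Egr4), 2 in Lam (Egr4 and Npas4) and 0 in DCA, beside 22.2%, 16.9%, 25.1% and 8.46% of all genes. Over all windows the highest −log10 q was 0.16 (Sham), 0.12 (SNA), 0.085 (Lam) and 0 (DCA). Ier2 had no H3K27me3 interval in any list, and Nr4a1 had 1, in Lam.

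Nr4a1, also known as Nur77, carried the widest acetylated start peak of the 10 genes. From the listed start to the gene end, chr15:101266846-101274795, the gene spans 7950 bp. The H3K27ac start peak measured 586 bp in Sham, 7062 bp in SNA, 1963 bp in Lam and 874 bp in DCA. The SNA peak, chr15:101266920-101273981, ran from 74 to 7135 bp downstream of the start. It was wider than the start peaks of 99.9% of genes that had one in that list, and 99.1% of that list's peaks had a lower −log10 p. The Sham peak, in contrast, was wider than 35.1% of start peaks. Part of the difference is one of division, since the Sham list broke the same stretch into 5 peaks. The gene's RefSeq span begins farther upstream, at 101253902. Counted as bases covered between listed start and gene end, H3K27ac took up 4124 (Sham), 7062 (SNA), 5472 (Lam) and 5683 (DCA), or 51.9%, 88.8%, 68.8% and 71.5% of the gene. SNA remained the highest, by less than its peak width alone shows. The SNA H3K27ac list is also the one that overlapped 18.2% of the strongest Sham peaks.

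H3K9ac at Nr4a1 gave start peaks of 410 bp in Sham, 4383 bp in SNA, 1451 bp in Lam and 3466 bp in DCA. These were not the same interval: the Sham peak lay upstream, from −748 to −339 bp, and the SNA peak inside the gene, from 351 to 4733 bp. SNA also had an upstream peak of 476 bp, from −847 to −372 bp. Inside the gene the Sham list was divided into shorter peaks of up to 1150 bp. Bases covered from start to gene end were 4017 (Sham), 7119 (SNA), 3858 (Lam) and 7329 (DCA). Both injury lists were thus high for H3K9ac at this gene and both control lists low. The DCA and SNA H3K9ac lists were also larger than their control lists, by 0.82 and 0.57 on the log2 scale, and the part of list size in the difference was not tested. The ATAC start peak was 1055, 764, 496 and 926 bp wide and did not follow that order. The Nr4a1 start peak was stronger by −log10 p than 98.1% to 98.6% of the peaks of each ATAC list. Of the 6 regions of the Nr4a1 window that were accessible in all 4 lists, 5 lay over 1 kb from the start, the farthest 20.0 kb upstream, at chr15:101245891-101246890. That region overlapped H3K9ac peaks in 4 lists and H3K27ac peaks in 3. The neighbouring gene Atg101 accounted for 12 of the 158 peaks in the window.

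Nr4a3, also known as Nor1, has its listed start at chr4:48045305. Its H3K9ac start peak was absent in Sham and SNA, 278 bp in Lam and 1249 bp in DCA. H3K9ac within 2.5 kb of the start covered 0, 0, 496 and 3367 bases in Sham, SNA, Lam and DCA, so DCA alone was high. The DCA and Lam start peaks lay downstream, from 986 to 2234 bp and from 930 to 1207 bp, and DCA had a further peak of 526 bp over the start itself. For H3K27ac the start peak measured 682 bp in Sham, 1865 bp in Lam and 1240 bp in DCA, and the SNA list held none within 1 kb. Within 2.5 kb of the start the SNA list did hold H3K27ac, with 513 bases covered, beside 715 in Sham, 2975 in Lam and 1719 in DCA. The widest Lam peak lay upstream, from −2651 to −787 bp, and beside it a Lam peak of 915 bp covered the start. In Sham the start peak, from −723 to −42 bp, had a fold of 18.1, with 98.9% of the list weaker by −log10 p. The DCA peak, from −958 to 281 bp, was stronger than 99.1% of its list. The SNA gap within 1 kb falls at a peak of the strong Sham set, of which 18.2% recurred in the SNA list. Accessibility showed no gap: the ATAC start peak was 953, 1051, 1021 and 1007 bp wide, the most even of the 10 genes.

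**Figure D3:**
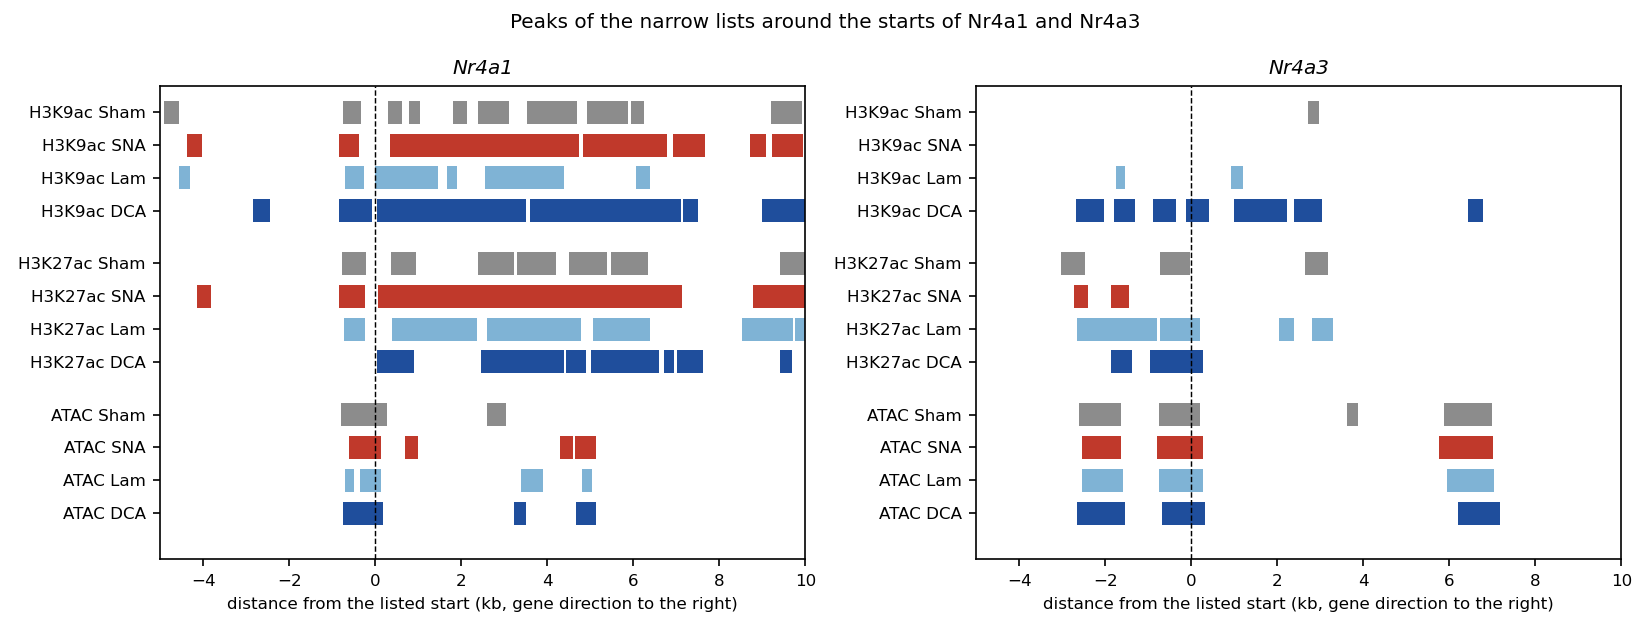
Peaks of the 12 narrow lists from 5 kb upstream to 10 kb downstream of the listed starts of Nr4a1 and Nr4a3, with distance in kb on the x axis and 1 row for each list, coloured by surgery. At Nr4a1 the gene from its listed start on is covered most by H3K27ac in SNA (88.8%) and by H3K9ac in DCA (92.2%) and SNA (89.5%), and H3K27ac covers over 50% of it in the other 3 lists too (51.9% to 71.5%). At Nr4a3 the SNA rows show no acetylation within 1 kb of a start that all 4 ATAC lists mark as accessible. Within 2.5 kb, H3K27ac covers 513 bases in SNA and 715 in Sham.

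Nr4a2, also known as Nurr1 and required for dopamine neurons of the midbrain, lies at chr2:57106830-57124003 on the minus strand. Its H3K9ac start peak measured 303 bp in Sham, 831 bp in SNA, 532 bp in Lam and 1314 bp in DCA, with each injury list above its control list. H3K27ac gave 409, 438, 670 and 555 bp, a narrow range. A second acetylated block lay inside the gene, 6.85 kb downstream of the start. There the accessible region chr2:57114216-57117152 was present in all 4 ATAC lists and overlapped all 8 acetylation lists. In the H3K27ac lists this block held peaks up to 1530 bp wide in Sham, 2484 bp in SNA, 2495 bp in Lam and 1485 bp in DCA, each wider than the start peak of the same list. The ATAC start peak was 1215 bp in Sham, 1292 bp in SNA, 968 bp in Lam and 1006 bp in DCA, differing less between lists than the H3K9ac peak did. A pair of strong Sham H3K27ac peaks lay beyond the gene end. The one at chr2:57102071-57102922, of fold 16.4 in its list, was overlapped by peaks of the other 3 H3K27ac lists and of 3 ATAC lists. The other, at chr2:57104439-57104939, was overlapped in Lam and DCA but by no SNA peak and by no ATAC peak in any list. Of the 78 peaks in the window, 14 overlapped the neighbouring gene LOC105244150.

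Arc, the immediate early gene whose messenger RNA travels to synapses, lies at chr15:74669081-74672570. H3K9ac at a gene end measured 753 bp in Sham, 500 bp in SNA and 1092 bp in DCA, all at the higher-coordinate end. The Lam list held no H3K9ac peak in the whole Arc window of 23490 bases, beside 4 in Sham, 6 in SNA and 5 in DCA. Since the other control list did hold H3K9ac there, Arc differed between the 2 control operations as well as between DCA and Lam. H3K27ac gave 545 bp in Sham, 367 bp in SNA, 465 bp in Lam and 321 bp in DCA, the Lam peak lying at the lower-coordinate end. Peaks of this mark near a gene end were thus short with every surgery. Those of DCA lay outside the gene, the nearest at chr15:74673004-74673220. Accessibility at the Arc start gave peaks of 809, 666, 512 and 784 bp. An accessible region in all 4 lists lay 6.3 kb beyond the higher-coordinate end, at chr15:74678866-74679899, and overlapped H3K9ac in 3 lists and H3K27ac in 4.

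Ier2 is the shortest of the genes, 1522 bp at chr8:84661331-84662852, and single acetylation peaks covered most of it in several lists. The H3K9ac peak was 1599 bp in Sham, 3005 bp in SNA, 736 bp in Lam and 1745 bp in DCA. H3K27ac gave 907, 1419, 3045 and 627 bp. The widest list was SNA for H3K9ac and Lam for H3K27ac. These widest peaks covered nearly the same stretch: the SNA H3K9ac peak ran from −1495 to 1509 bp and the Lam H3K27ac peak from −1510 to 1534 bp, counted from the lower-coordinate end. Of 6 ATAC regions in its window 4 were present in all 4 lists, and each of those 4 overlapped all 4 H3K27ac lists. ATAC start peaks of Ier2 measured 671, 1557, 980 and 1507 bp in Sham, SNA, Lam and DCA, above control in both injury lists.

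Dusp1, whose product ends the MAP kinase signals that induce these genes, lies at chr17:26505591-26508472 on the minus strand. The H3K9ac start peak was 2443 bp in Sham, 2165 bp in SNA, 942 bp in Lam and 1326 bp in DCA. It was widest in Sham, wider than 99.5% of the start peaks of that list. H3K27ac gave 730, 1118, 1142 and 424 bp, with DCA lowest. From start to gene end H3K27ac covered 45.1% of the 2882 bp in Sham, 65.6% in both SNA and Lam, and 14.7% in DCA. H3K9ac covered 82.3%, 82.5%, 45.7% and 57.9% in the same order, high in both lists of the sciatic operation. At the Dusp1 start the ATAC peak was 1354, 1440, 1244 and 1114 bp wide, and it was stronger than 96.6% to 98.0% of the peaks of each list. A further accessible region, chr17:26502791-26503499, lay 4.97 kb downstream of the start and overlapped all 8 acetylation lists.

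Injury lists were next set against their own controls over the genes together. With SNA over Sham, no member had a start peak for H3K9ac or H3K27ac in SNA alone, where 5.19% and 13.6% of all genes had one. Egr3 had H3K9ac in Sham and not SNA, as did 3.84% of genes, and Nr4a3 had H3K27ac in Sham and not SNA, as did 2.39%. With DCA over Lam, Arc had H3K9ac in DCA only, as did 9.43% of genes, and no member had it in Lam only (0.571%). For H3K27ac no member had a start peak in only DCA (2.4%) or only Lam (10.4%). Between the control operations, Nr4a3 had H3K9ac in Lam and not Sham (5.32% of genes) and Arc had it in Sham and not Lam (4.36%). No member differed in this way for H3K27ac, where 13.0% of genes had a start peak in Lam alone and 2.13% in Sham alone. Presence at the start thus differed for 2 members between the control operations for H3K9ac, and for 1 member or none in each comparison of an injury with its control.

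Widths were compared for members with a start peak in both lists. For H3K9ac, the DCA peak was wider than the Lam peak in 7 of 7 members, with a median log2 ratio of 1.25 over a range of 0.49 to 2.17. Over all 11051 genes the median was 0.86, so wider DCA peaks were found over the whole list and not in the members alone. A width ratio of at least 1.5 was reached by 6 of 7 members with DCA wider, beside 64.5% of genes, and by 0 with Lam wider (0.842%). With SNA over Sham the 6 members spread from −1.40 for Egr1 to 3.42 for Nr4a1, with a median of 0.37 beside 0.19 over all genes. At Egr1 and at Nr4a1 the Sham start peak overlapped neither the SNA nor the Lam start peak, so these ratios compare different intervals. Nr4a1, Nr4a2 and Ier2 were at least 1.5 times wider in SNA (3 of 6, beside 25.9% of genes), and Egr1 and Arc were so in Sham (2 of 6, beside 11.8%). Lam over Sham gave a median of −0.15 (all genes −0.038) and a spread from −1.85 for Egr1 to 1.82 for Nr4a1, with 3 of 6 wider in Lam (Egr3, Nr4a1 and Nr4a2, beside 17.6%) and 3 of 6 wider in Sham (Egr1, Ier2 and Dusp1, beside 22.1%). This median was −1.12 over the 5 members left with a −log10 q of at least 1.3, and also over the 5 with a start peak in all 4 lists. At a −log10 q of at least 5 a single member, Dusp1, was left, at 0.49 in DCA against Lam and −1.37 in Lam against Sham.

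For H3K27ac the direction in DCA was the opposite. The DCA peak was narrower than the Lam peak in 8 of 8 members, with a median log2 ratio of −0.93 and a range of −2.36 for Egr3 to −0.27 for Nr4a2, beside a median of −0.40 over 8958 genes. Lam was at least 1.5 times wider for 6 of 8 members, beside 39.9% of genes, and DCA for 0, beside 6.9%. Of 7 glial marker genes, 7 had an H3K27ac start peak in Lam and 4 in DCA, so 3 of 7 had one in Lam only, beside 10.4% of all genes. The median log2 width ratios of these glial markers for DCA over Lam were −0.62 for H3K27ac (4 genes) and 2.06 for H3K9ac (6 genes). Such differences were not limited to glial markers. An H3K27ac start peak in Lam and not DCA was also found for 1 of 4 endothelial and 1 of 4 fibroblast markers. Of 8 sensory neuron markers, 1 had one in Lam only and 1 in DCA only. The median H3K9ac ratio was positive for the neuron, endothelial and fibroblast markers too, over 2 genes each. The part of each cell type in the members' values was not tested. SNA over Sham had a median of 0.16 beside 0.15 over all genes, with Nr4a1 at 3.59 as the highest. It was −0.44 over the 3 members left with a −log10 q of at least 5. At the 1.5-fold limit 3 of 7 were wider in SNA (Nr4a1, Ier2 and Dusp1, beside 26.9%) and 1 of 7 in Sham (Egr1, beside 15.6%). Lam over Sham, again without an axotomy in either, had a median of 0.77 beside 0.32, with 6 of 8 wider in Lam (beside 36.7%) and 1 of 8, Egr1, wider in Sham (beside 8.91%). Both of these comparisons use the Lam list, in which members' H3K27ac peaks were wide against Sham and DCA alike. ATAC widths differed less: the median log2 ratio was 0.12 for SNA against Sham, 0.25 for DCA against Lam and −0.042 for Lam against Sham, beside 0.043, 0.046 and −0.00079 over all genes.

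**Figure D4:**
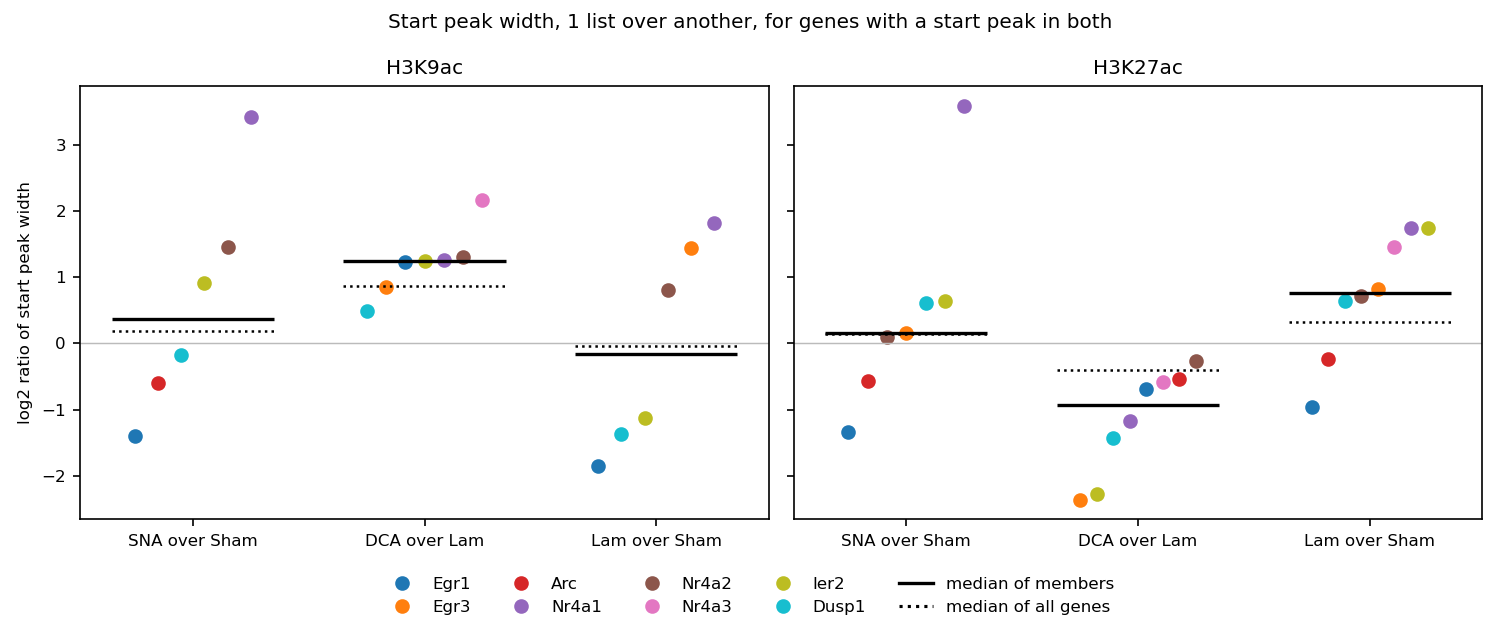
Log2 ratio of start peak width, 1 list over another, for members with a start peak in both lists (points, coloured by gene), with the median of the members as a solid line and the median of all genes as a dotted line. For DCA over Lam all 7 H3K9ac points lie above 0 and all 8 H3K27ac points below, and Nr4a1 is highest for SNA over Sham in both marks. For H3K9ac that Nr4a1 point compares peaks that do not overlap.

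Numbers of peaks over the 10 windows followed the lists less closely. H3K9ac peaks totalled 49 (Sham), 51 (SNA), 37 (Lam) and 61 (DCA). DCA over Lam was 0.72 on the log2 scale (95% exact binomial interval 0.11 to 1.35, counting error only), beside 0.82 for the whole lists, while SNA over Sham was 0.058 (−0.54 to 0.65) beside 0.57. H3K27ac peaks totalled 45, 46, 50 and 38, with log2 ratios of 0.032 (−0.59 to 0.66) for SNA over Sham, beside 0.79 for whole lists, and −0.40 (−1.04 to 0.24) for DCA over Lam, beside −0.53. With the lists cut to equal size the SNA over Sham ratios were −0.29 for H3K9ac and −0.49 for H3K27ac, both within the intervals given. Lam over Sham, without an axotomy in either, was −0.41 (−1.06 to 0.24) for H3K9ac, beside 0.0096 for the whole lists. For H3K27ac it was 0.15 (−0.46 to 0.77), beside 0.62. The members' ratio was thus below the whole-list ratio between the control operations too. The SNA lists were larger, but with the full lists the members' windows held about as many peaks as in Sham. Fewer and wider peaks were part of this at Nr4a1, where the H3K9ac peaks numbered 20 in Sham and 15 in SNA while the bases covered in the window were 12276 and 17294. ATAC peaks totalled 52, 52, 61 and 52, and H3K27me3 intervals 29, 26, 32 and 16. The H3K27me3 ratio of DCA over Lam was −1.0 (−1.96 to −0.092), beside −0.78 for the whole lists and −1.11 summed over the windows of all genes. The members' ratio was −0.087 when the lists were cut to equal size. Among peaks with a −log10 q of 5 or more, the H3K9ac ratio was 2.89 for DCA over Lam and 1.17 for SNA over Sham, where the whole lists held 2137 (Sham), 8031 (SNA), 7108 (Lam) and 42723 (DCA) such peaks. Of 697 peaks in the 10 windows, 34 overlapped another protein-coding gene.

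**Figure D5:**
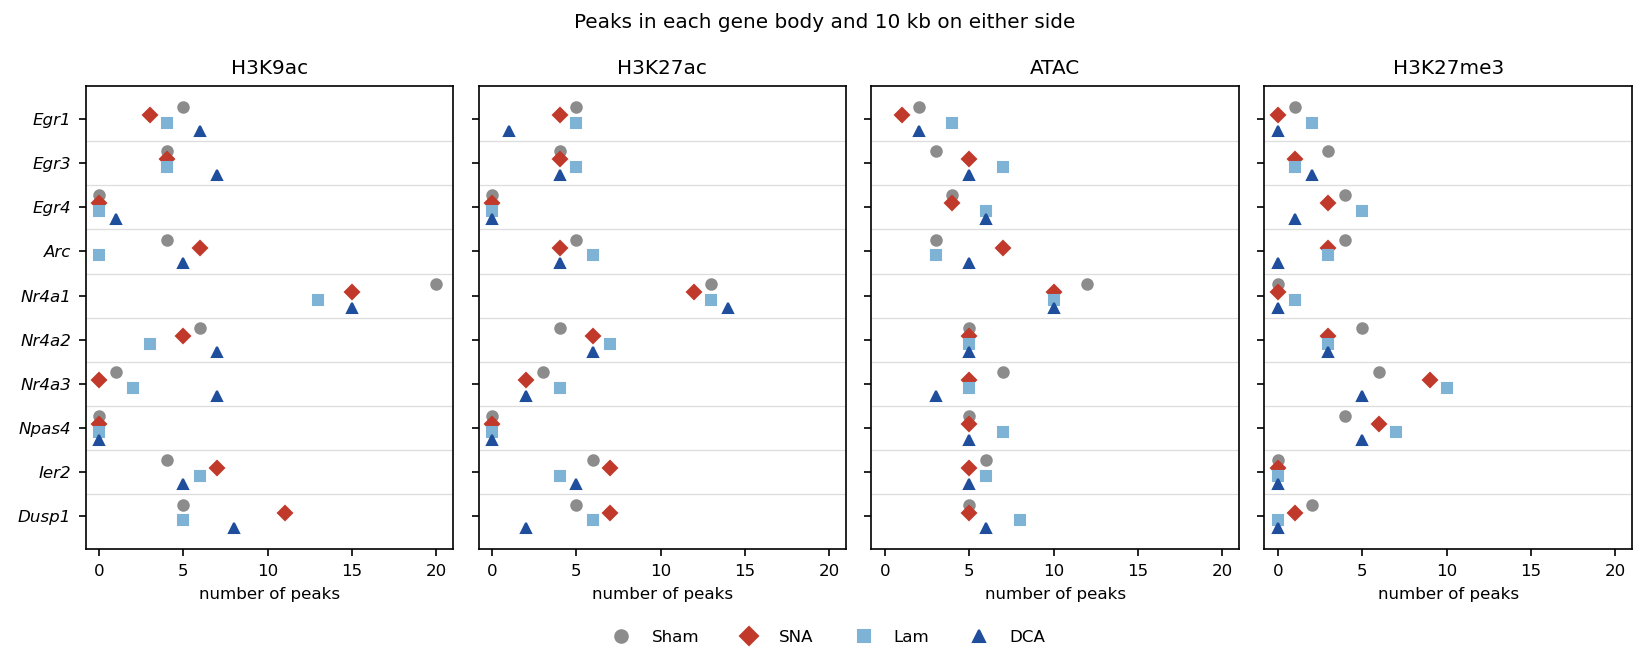
Number of peaks in each gene body and 10 kb on either side (x axis) for each gene (rows), in 1 panel for each assay and with 1 marker for each surgery. Nr4a1 has the most acetylation peaks, up to 20 in the Sham H3K9ac list, and Egr4 and Npas4 have H3K27me3 and ATAC peaks with at most 1 acetylation peak.

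Merging the 4 lists of an assay gave regions whose recurrence could be counted. Of 82 ATAC regions in the members' windows 27 were present in all 4 lists (32.9%), beside 12.2% of the regions in all gene windows. For H3K9ac the counts were 18 of 66 (27.3%, beside 19.9%) and for H3K27ac 16 of 54 (29.6%, beside 14.7%). Of the 27 recurrent ATAC regions, 18 lay over 1 kb from a start, 15 overlapped H3K27ac in all 4 lists and 5 overlapped no acetylation peak in any list. Those 5 were the 3 of Npas4 and 2 of Egr4. H3K27me3 regions recurred in all 4 lists for 6 of 40 (15.0%, beside 3.95%). A merged region counts for a list however little of it that list covers. The Egr4 region of 25099 bp counted as present in DCA through a single interval of 824 bp. The highest −log10 q of an H3K27me3 interval in these windows was 0.16.

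Other genes of the pathway were read in the same way. Among 20 further rapid response genes, which include Fos, Junb and Atf3, an H3K9ac start peak was present for 18 (Sham), 19 (SNA), 20 (Lam) and 20 (DCA), and an H3K27ac start peak for 19, 20, 20 and 20. All 20 were accessible in Sham, Lam and DCA and 19 in SNA, where Ier3 was the exception. Shares over all genes were 50.1% to 59.9% for H3K9ac, 40.4% to 51.6% for H3K27ac and 68.8% to 70.7% for ATAC. The 20 genes were thus acetylated with nearly every surgery, and few differed between lists. Csrnp1 and Ier5 had H3K9ac in SNA and not Sham (2 of 20, beside 5.19% of all genes). Maff had H3K9ac in Sham and not SNA (1 of 20, beside 3.84%) and H3K27ac in SNA and not Sham (1 of 20, beside 13.6%). Csrnp1 and Ier5 for H3K9ac and Maff for H3K27ac also had a start peak in Lam and not Sham, so the Sham list was the one without. Among 12 genes listed as delayed response H3K9ac was present at 5, 5, 5 and 9 starts in Sham, SNA, Lam and DCA, and H3K27ac at 4, 5, 5 and 3. Of these, Ptgs2, which encodes a cyclooxygenase, Nptx2, a synaptic pentraxin, and Vgf, a secreted neuropeptide precursor, had H3K9ac in DCA and not Lam. They belong to 4 of 12 genes with that pattern, beside 9.43% of all genes. For H3K27ac, Nrn1 and Homer1 had a start peak in Lam and not DCA (2 of 12, beside 10.4% of all genes). Plk2 and Homer1 had one in SNA and not Sham (2 of 12, beside 13.6%). Plk2 and Homer1 also had one in Lam and not Sham. In the ATAC lists Scg2 had one in Sham and not SNA, and Pcsk1 and Scg2 had one in DCA and not Lam. Both also had one in Sham and not Lam. Genes of this list were accessible at 12, 11, 10 and 12 starts. The share of all genes with an ATAC start peak in 1 list and not the other was not counted.

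Among 10 upstream regulators, the transcription factors, kinase and acetyltransferases that act on these genes, H3K9ac was present at 6, 7, 7 and 9 starts and H3K27ac at 6, 7, 9 and 7, while 9 were accessible in each ATAC list. Over all genes the shares were 50.1% to 59.9% for H3K9ac and 40.4% to 51.6% for H3K27ac. Crtc1, a CREB coactivator, and Mef2c had H3K9ac in DCA and not Lam (2 of 10, beside 9.43%), and Elk1 had it in SNA and not Sham (1 of 10, beside 5.19%) and also in Lam and not Sham. For H3K27ac, Mef2c had a start peak in Sham and not SNA (1 of 10, beside 2.39%). Creb1 had one in Lam and not DCA, as did Elk1 (2 of 10, beside 10.4%). Crebbp, an acetyltransferase that binds CREB, and Creb1 had one in SNA and not Sham (2 of 10, beside 13.6%), and both also had one in Lam and not Sham. Median log2 width ratios of DCA over Lam were 0.99 for H3K9ac and −0.67 for H3K27ac over the rapid response genes, beside 0.86 and −0.40 over all genes. They were 1.57 and −0.40 over the upstream regulators, and 0.55 and 0.22 over the list of delayed response genes, where the H3K27ac value rests on 3 genes and has the opposite sign.

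The genes with the most similar cover were found from the bases covered within 2.5 kb of the start in each of the 12 narrow lists. Closest to Egr1 were Hes6, Ing5 and Adarb1, which differed from it by a mean of 307, 329 and 348 bases per list. Closest to Arc were Adamtsl2, Zmym6 and Itpa, at 190, 252 and 258 bases. Closest to Npas4 were Slc7a15, Slc24a5 and Ly6l, at 16.3, 16.9 and 18.8 bases, small differences because most lists cover 0 bases there. Over the 12 lists together Npas4 had 2746 bases covered, Slc7a15 2686, Slc24a5 2765 and Ly6l 2704.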

How the data were processed

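ChIP-seq for 3 histone marks and ATAC-seq were deposited as 1 peak list for each assay and surgery, from replicates pooled, per the labels. The build is mm10, per the submitters' processing notes. The aligner, peak caller and settings are not given in the sources used here. The authors' lists hold an integer display score and the offset of each summit (not used), a fold enrichment (a linear ratio over background), and −log10 p and −log10 q values, used only within a list. ATAC intervals repeated for several summits were collapsed to the highest −log10 p.

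Peaks (1-based) were joined to RefSeq GRCm38.p6 genes with Python 3.11.15, numpy 2.4.6 and pandas 2.3.3. Of 21887 genes, 17492 had a listed start, and both gene ends were used for the rest. Overlap required at least 1 bp, and regions merged overlapping peaks of an assay's 4 lists. Window counts were checked on simulated peaks. With 1 pooled list a group, no test was possible. Intervals are exact binomial and cover counting error only.

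The members and gene lists were chosen with earlier results of these data known. All 10 members are named, up to 3 genes of each other list and assay whose start peak was in an injury list or its control only, by −log10 p, and the 3 genes most like Egr1, Arc and Npas4. Alternatives were other q limits, equal list sizes, other windows, merged peaks, covered bases in place of width, and genes with a start peak in all 4 lists.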

Additional observations from a re-analysis of the deposited data

Results flagged for a closer look

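Start peak width differed in opposite directions with the 2 injuries, by at least 1.5 times in each, at 4 genes, each injury set against its own control list. The difference between the injuries was not tested, since each value rests on 1 pooled list a group. The share of all genes that met this rule in both injuries was not counted. At the same limit, H3K27ac start peaks were wider in SNA than in Sham for 26.9% of genes and wider in Lam than in DCA for 39.9%. H3K9ac start peaks were wider in Sham than in SNA for 11.8% and wider in DCA than in Lam for 64.5%. For Nr4a1 H3K27ac the log2 ratio of SNA over Sham exceeded that of DCA over Lam by 4.76. For Ier2 H3K27ac the same difference was 2.93, and for Dusp1 H3K27ac it was 2.04. All 3 had a wider peak in SNA than in Sham and a narrower one in DCA than in Lam. The SNA H3K27ac list used for these values overlapped 18.2% of the 5000 strongest Sham H3K27ac peaks, beside 90.5% for Lam and 91.5% for DCA. Whether the SNA and Sham lists can be compared in width was not tested. Lam was also wider than Sham for all 3 genes, by log2 ratios of 1.74, 1.75 and 0.65. For Dusp1 the SNA peak, chr17:26508798-26509915, lay upstream of the start and the Sham peak, chr17:26507130-26507859, inside the gene. Its SNA to Sham width ratio was 1.53, close to the limit. From start to gene end H3K27ac covered 45.1% of Dusp1 in Sham, 65.6% in both SNA and Lam, and 14.7% in DCA. For Egr1 H3K9ac the difference was −2.63, from a narrower peak in SNA than in Sham and a wider one in DCA than in Lam, while Lam was narrower than Sham by a log2 ratio of −1.85. Other opposite pairs missed the limit of 1.5 times in 1 or both injuries, among them Egr3 H3K27ac with log2 ratios of 0.16 in SNA against Sham and −2.36 in DCA against Lam. Width and cover did not give the same picture at Nr4a1: from start to gene end H3K27ac covered 5683 bases in DCA and 5472 in Lam, so DCA was not below Lam there, whereas within 2.5 kb of the start it covered 912 and 2451.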

How the results depend on the processing

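Of 131 values recomputed for 25 results, 120 stayed within the range set for a matching result, 11 moved and 0 reversed a called sign. For the H3K9ac and H3K27ac width ratios that range ran from the lowest to the highest member. A median over fewer of the same members could hardly leave it, so these matches say little about robustness. Medians counted as matching included −1.12 beside −0.15 for H3K9ac in Lam over Sham. For H3K27ac in SNA over Sham they included −0.44 beside 0.16. Members' H3K9ac start peaks, 28 of the 40 gene and list pairs, fell to 14 with a −log10 q of at least 5. H3K27me3 start peaks, 7 of 40, numbered 0 at a −log10 q limit of 1.3, 0 at 5, 2 with equal list sizes and 11 within 2.5 kb. At the limit of 5 the log2 ratios of peak number were 1.17 (SNA to Sham), 2.89 (DCA to Lam) and 0.32 (Lam to Sham) for H3K9ac, and for DCA to Lam −1.17 in H3K27ac and 0.40 in ATAC. The H3K9ac Lam to Sham ratio and the ATAC ratio thus changed sign from −0.41 and −0.23, whose intervals included 0. With equal list sizes the H3K27me3 ratio of DCA over Lam was −0.087. The cause was not tested. No paired analysis was possible because each deposited list pools the replicates, and for the same reason leaving out a replicate could not be run. Absence of a peak means that none passed the authors' limit at an unknown depth.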
